A study of Mus musculus with 6 samples.

Results

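The 10 genes described here encode the core of the mouse microRNA pathway: Drosha and Dgcr8 (the Microprocessor), Xpo5 (exportin-5), Dicer1, the Argonautes Ago1, Ago2 and Ago3, and the TNRC6 scaffolds Tnrc6a, Tnrc6b and Tnrc6c. They were chosen by name, as the mouse transcript rows whose identifiers map to these symbols in GENCODE M21 (build GRCm38), and they are 10 of 11236 genes with rows, with 14 of 21558 matched transcripts. A total of 6 RNA-seq libraries were compared, 3 labelled NC and 3 labelled tRF-Val, all from BUMPT cells, a mouse proximal tubule epithelial cell line. The stated purpose of the study concerns apoptosis targets of a fragment of a valine transfer RNA. The labels do not spell out NC, leave unsaid if the fragment was supplied to the cells or blocked, and give no genotype, dose or time, and they do not say that the replicates are separate cultures.

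In animal cells Drosha and its RNA-binding partner DGCR8 cut microRNA hairpins out of nuclear transcripts, exportin-5 with RAN carries them to the cytoplasm, and Dicer trims them to short duplexes. One strand is loaded into an Argonaute protein, which pairs with messenger RNAs through the seed of the microRNA. The Argonaute binds a TNRC6 protein, which recruits the deadenylase complexes that shorten the poly(A) tail of the target.

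The machinery and its products meet in the sequence of Dgcr8 itself. A microRNA hairpin, Mir1306, lies wholly in the coding part of exon 2 of Dgcr8-201, at chr16:18284239-18284317 on the minus strand, which is also the gene's strand. It is shown because Microprocessor is known to cut hairpins within the Dgcr8 messenger RNA, so that this member is also a substrate. Capitals in the 79-base hairpin mark the 2 mature arms, and capitals in the mature sequences mark the seed, bases 2 to 8 (RefSeq, GRCm38.p6).

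Mir1306 hairpin: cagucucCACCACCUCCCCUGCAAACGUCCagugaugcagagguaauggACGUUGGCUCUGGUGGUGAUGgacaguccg

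mmu-miR-1306-5p: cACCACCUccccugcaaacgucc

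mmu-miR-1306-3p: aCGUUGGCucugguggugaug

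The seeds of the 2 arms, ACCACCU and CGUUGGC, differ. Of the other annotated hairpins in these genes, Gm24572 lies in the non-coding part of the same exon, Mir693 in an intron of Xpo5 and Mir5113 in exon 25 of Tnrc6b. The microRNAs themselves were not analysed here.

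Promoters are shown for Xpo5 and Dicer1, the members whose gene sums had the lowest fold changes. Each runs from 250 bases before the annotated start to 50 after it, and 9 of the 10 members had an entry, Ago2 being the exception. The Xpo5 promoter, chr17:46202561-46202860 on the plus strand, holds the NRF1 motif GCATGCGC, and the capitals mark its matches, each of which reads as the motif on both strands with an overlap. Of 32851 mouse promoters of this length, with 1 chromosome left out, 2.71% hold this motif. Of the 11 promoters of the 9 members, 1 did, that of Xpo5.

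Xpo5 promoter: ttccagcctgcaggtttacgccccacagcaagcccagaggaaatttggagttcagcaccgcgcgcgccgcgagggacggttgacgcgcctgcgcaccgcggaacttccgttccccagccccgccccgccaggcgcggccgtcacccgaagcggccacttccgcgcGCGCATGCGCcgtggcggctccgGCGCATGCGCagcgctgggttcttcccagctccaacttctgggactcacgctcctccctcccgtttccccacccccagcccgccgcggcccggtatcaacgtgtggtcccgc

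The Dicer1 promoter, chr12:104751903-104752202 on the minus strand, holds the NF-Y motif CCAAT, in capitals.

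Dicer1 promoter: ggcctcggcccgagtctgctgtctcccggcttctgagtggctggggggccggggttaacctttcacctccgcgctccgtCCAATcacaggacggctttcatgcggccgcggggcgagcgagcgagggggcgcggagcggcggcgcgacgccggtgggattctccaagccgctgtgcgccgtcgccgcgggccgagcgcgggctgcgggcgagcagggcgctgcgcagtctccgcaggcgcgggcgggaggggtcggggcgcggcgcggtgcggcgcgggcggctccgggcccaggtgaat

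CCAAT was found for 5 of 9 members and in 6 of their 11 promoters, beside 37.4% of the 32851 promoters. The 2 promoters of Ago1 overlap and share the same match, which is counted in both. The ETS motif CTTCCGG was found in 2 of the 11 promoters, those of Drosha and Ago3, beside 8.86%, and TATAAA in 0 of 11, beside 13.6%. Motifs were searched on both strands, and a match is a description of the letters only.

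None of the 10 members passed the test between the groups, but most were at lower abundance in tRF-Val. Values are the authors' StringTie abundances, which are per transcript length (FPKM or TPM, not stated), summed over the transcripts of a gene. Each fold change is the difference of the group means of log2(value + 1), with NC subtracted from tRF-Val, a scale that shrinks the change of low genes, and adjusted p-values are from limma with Benjamini-Hochberg adjustment over 10405 genes. At an adjusted p under 0.05, 0 of 10 members were called, beside 27 of 10405 genes or 0.259%, of which 6 were higher and 21 lower (15 and 23 with libraries scaled to a common median, 286 and 316 without NC 3). At an unadjusted p under 0.05, 5 members were lower (Xpo5, Ago2, Dicer1, Tnrc6b and Dgcr8) and 0 were higher, beside 15.6% of all genes that were lower and 12.2% that were higher at this p. In 7 of 10 members every tRF-Val library lay below every NC library, beside 22.1% of all genes, and in 0 of 10 above, beside 20.3%. The median log2 fold change of the 10 members was -0.38, and that of all genes tested was 0.01. Most members are long, and of genes in the longest of 10 bins of transcript length, which holds 7 members, 53.9% lay lower without overlap. With the trends with length and GC content removed, 5 members had a negative and 5 a positive fold change, and the members' median was -0.02. In bulk RNA, a smaller share of cells with a transcript and less of it per cell cannot be told apart.

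Libraries differed in ways that touch these values. The summed abundance of the matched mouse rows was 387026, 387688 and 389158 in NC and 420640, 444218 and 435207 in tRF-Val, without overlap. Mitochondrial transcripts made up 17.5% of the summed abundance in NC 3, 6.33% and 6.59% in NC 1 and NC 2, and 3.17% to 5.30% in tRF-Val. Of the 10 members, 6 had their highest NC value in NC 3 and 7 their lowest tRF-Val value in tRF-Val 3. Without NC 3 the median log2 fold change of the members was -0.41 and that of all genes -0.08. Of 10 proximal tubule markers only Aqp1 had rows (8.73 to 31.3 in NC and 17.6 to 25.8 in tRF-Val; Lrp2 and Cubn had none), against 7 of 7 epithelial markers, whose summed abundance was 476 to 718 in NC and 838 to 942 in tRF-Val. Of 7 leukocyte markers 4 had rows (Cd68, Cd14, Lyz2 and Cd3e; Ptprc did not), with sums of 8.29 to 23.5 in NC and 34.1 to 40.9 in tRF-Val. The fibroblast and synovial list had 1 of 6 (Pdgfra, 0.85 to 0.979 and 0.568 to 0.94) and the endothelial list 1 of 4 (Cdh5, 6.25 to 8.03 and 2.72 to 5.02). The part of these differences in the members' values was not tested.

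**Figure D1:**
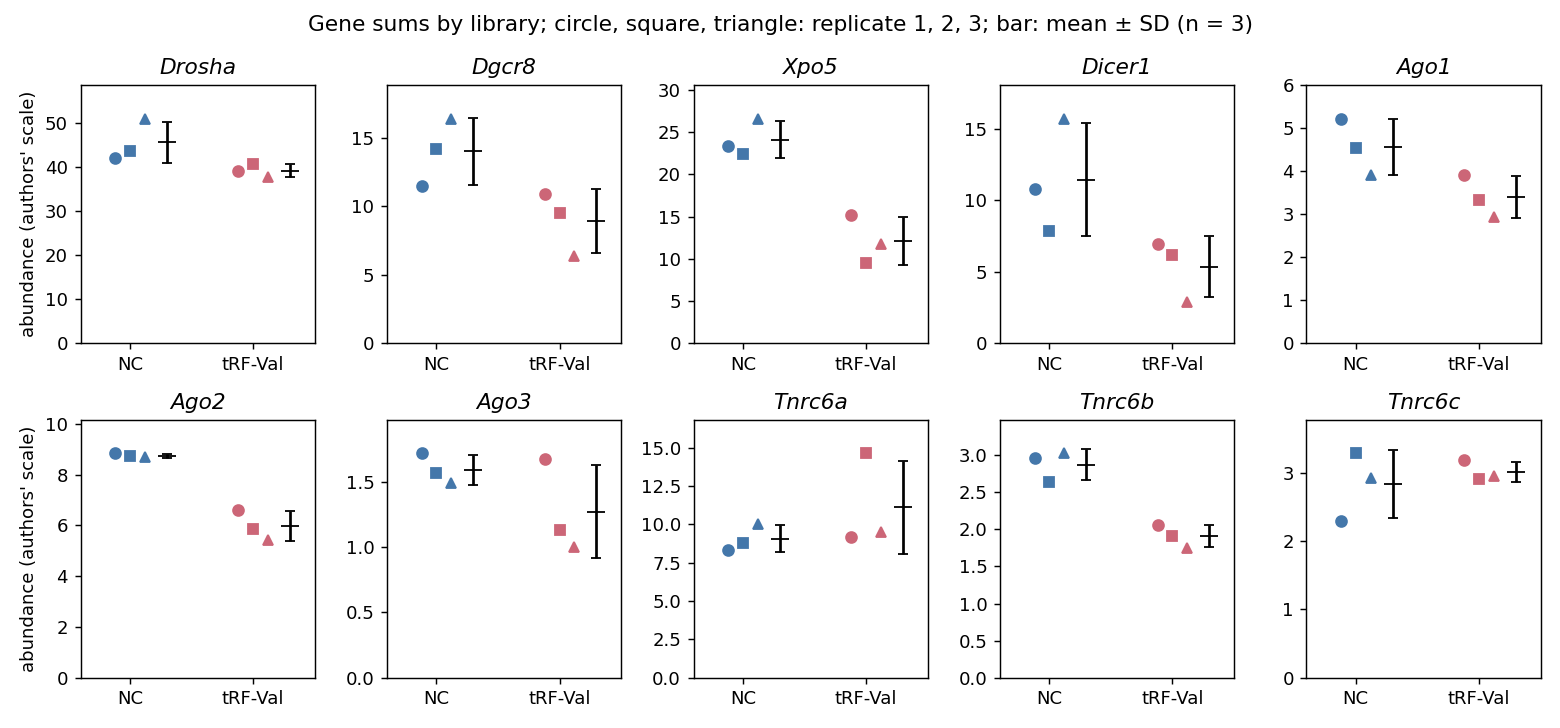
Summed abundance of each member (y axes, the authors' scale, from 0) in the 6 libraries, with circles, squares and triangles for replicates 1, 2 and 3 and bars for mean ± SD (n = 3). In 7 panels the tRF-Val points lie below all NC points, and in those of Ago3, Tnrc6a and Tnrc6c the groups overlap.

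Drosha, the nuclear RNase III that makes the first cut, was the most abundant member. Its abundance was 42.0, 43.5 and 50.9 in NC 1 to 3 and 39.1, 40.6 and 37.6 in tRF-Val 1 to 3. The groups did not overlap, but they were separated by less than the range within NC. The means were 45.5 ± 4.76 and 39.1 ± 1.47 (SD, n = 3 each), a log2 fold change of -0.21 (SE 0.138; limma adjusted p = 0.343).

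Dgcr8, the double-stranded RNA-binding subunit that holds the hairpin for Drosha, was at 11.5, 14.2 and 16.4 in NC and at 10.9, 9.48 and 6.34 in tRF-Val. NC 1 and tRF-Val 1 lay close together, and the lowest value was that of tRF-Val 3. The means were 14.0 ± 2.45 and 8.91 ± 2.33 (SD, n = 3 each), a log2 fold change of -0.62 (SE 0.24; limma adjusted p = 0.164). The ratio of Drosha to Dgcr8 was 3.65, 3.07 and 3.10 in NC and 3.58, 4.28 and 5.94 in tRF-Val. The ratios of the groups overlapped through NC 1 and tRF-Val 1.

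Xpo5, which exports hairpin precursors from the nucleus, had the smallest p of the 10 members. Its abundance was 23.4, 22.5 and 26.6 in NC and 15.2, 9.54 and 11.7 in tRF-Val. The groups were separated by more than the range within either of them. The tRF-Val mean was 12.2 ± 2.86 against 24.2 ± 2.20 (SD, n = 3 each), which is 0.503 of the NC mean. The log2 fold change was -0.96 (SE 0.2; unadjusted p = 0.00258; limma adjusted p = 0.0859), so it did not pass. Leaving out each library in turn gave fold changes of -1.12 to -0.81.

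Dicer1, the cytoplasmic RNase III that makes the second cut, had the lowest log2 fold change of the members but also the largest SE of that fold change. Its abundance was 10.8, 7.87 and 15.8 in NC and 6.96, 6.19 and 2.89 in tRF-Val. NC 3 was the highest library and tRF-Val 3 the lowest, and NC 2 and tRF-Val 1 were neighbours. The means were 11.5 ± 3.98 and 5.35 ± 2.16 (SD, n = 3 each), with a log2 fold change of -0.99 (SE 0.361; limma adjusted p = 0.149).

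The 2 Dicer1 transcripts with rows had separate patterns. Most of the difference between the groups in the Dicer1 sum lay in Dicer1-203. Its means were 5.13 in NC and 0.0102 in tRF-Val, against 6.34 and 5.34 for Dicer1-201. Dicer1-201, with 27 exons and a coding sequence of 5718 bases, was at 7.25, 5.20 and 6.58 in NC and at 6.93, 6.19 and 2.89 in tRF-Val. The groups overlapped, with tRF-Val 1 and tRF-Val 2 inside the NC range and tRF-Val 3 below it, and the log2 fold change was -0.27 (SE 0.335; limma adjusted p = 0.672 over 16320 transcripts). Without tRF-Val 3 it was 0.05, with the opposite sign. Dicer1-203 is a short model of 1460 bases and 9 exons, annotated with an alternative 5′ UTR and an incomplete 3′ end, that starts 13115 bases downstream of the start of Dicer1-201. It shares 1307 of its bases with Dicer1-201, which has 9851, and has 153 of its own in its first 2 exons. Reads of the 2 models therefore overlap, and how they were divided between the models was not tested. Values are per transcript length, so a given value of Dicer1-203 stands for fewer reads than the same value of Dicer1-201. The log2 fold change of the Dicer1 sum, -0.99, includes this short model.

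Dicer1-203 was at 3.55, 2.67 and 9.17 in NC and at 0.0305, 0 and 0 in tRF-Val. It made up 32.9%, 33.9% and 58.2% of the Dicer1 sum in NC and 0.439%, 0% and 0% in tRF-Val. Every NC library was above every tRF-Val library, with 2 of the tRF-Val libraries listed at 0. Over all matched transcripts, 1083, 1110 and 2191 were listed at 0 in NC, against 1999, 3064 and 2580 in tRF-Val; the part of this difference in the Dicer1-203 values was not tested. Its fitted log2 fold change was -2.46 (SE 0.431; limma adjusted p = 0.0759 over all transcripts), and without NC 3 it was -2.02 with an adjusted p of 0.0326, which passed. With a pseudocount of 0.1 in place of 1 it was -5.38 (limma adjusted p = 0.0507), so its size depends on the pseudocount. Dicer1-203 reached the minimum mean of 1 for the fit through its NC values, with means of 5.13 in NC and 0.0102 in tRF-Val. The lower limit that all mouse rows reach in 1 group or the other was also reached in NC only. The part of this selection in its fold changes and p-values was not tested. Across all member transcripts tested, 0 of 11 passed the threshold and 3 were lower at an unadjusted p under 0.05, beside 10.4% of all transcripts. Of all 16320 transcripts, 186 passed, or 1.14%, of which 49 were higher and 137 lower.

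**Figure D2:**
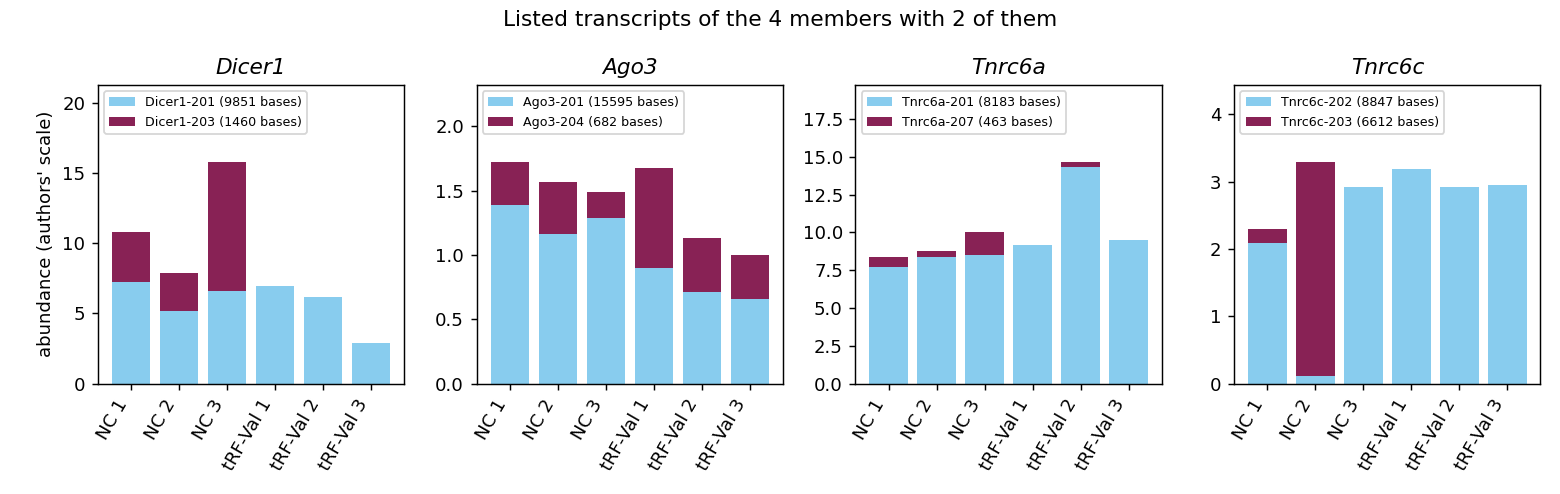
Abundance of the listed transcripts (stacked bars, y axes from 0, the authors' scale) of the 4 members with 2 of them, by library. The dark segment of Dicer1-203 is present in the 3 NC libraries and at or near 0 in tRF-Val, and Tnrc6c-203 holds 96.4% of the Tnrc6c bar in NC 2.

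Among the Argonautes, Ago2 was the most abundant in every library. Ago2 is the member of the family that can cut a fully paired target, and its abundance was 8.83, 8.72 and 8.68 in NC and 6.60, 5.87 and 5.42 in tRF-Val. The NC libraries differed little from each other, and the groups were well apart. The means were 8.74 ± 0.0813 and 5.97 ± 0.597 (SD, n = 3 each), a log2 fold change of -0.49 (SE 0.152; limma adjusted p = 0.119).

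Ago1, which acts in repression through TNRC6, was at 5.23, 4.55 and 3.92 in NC and at 3.92, 3.34 and 2.94 in tRF-Val. The groups were in contact, since NC 3 at 3.919 and tRF-Val 1 at 3.917 were almost equal. The log2 fold change was -0.34 (SE 0.182; limma adjusted p = 0.261). Ago3 was the lowest member, at 1.72, 1.57 and 1.49 in NC and 1.68, 1.13 and 1.00 in tRF-Val. The groups overlapped, and the log2 fold change was -0.20 (SE 0.175; limma adjusted p = 0.465).

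Ago3 also had 2 transcripts with rows. The long Ago3-201 was at 1.38, 1.16 and 1.29 in NC and at 0.897, 0.708 and 0.655 in tRF-Val. Its groups did not overlap (log2 fold change -0.38, SE 0.263, limma adjusted p = 0.448). Ago3-201 reached the minimum mean of 1 for the fit through its NC values, with means of 1.28 in NC and 0.753 in tRF-Val. The part of this selection in its fold change and p-value was not tested. Ago3-204, a model of 682 bases with an incomplete 5′ end, was at 0.335, 0.402 and 0.203 in NC and at 0.778, 0.424 and 0.347 in tRF-Val, with overlap through NC 2 and tRF-Val 3. Its share of the Ago3 sum was 13.6% to 25.7% in NC and 34.6% to 46.5% in tRF-Val. Ago3-204 reached the lower limit of all mouse rows in tRF-Val only, with means of 0.313 in NC and 0.516 in tRF-Val. The part of this selection in its values and share was not tested.

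The summed abundance of the 3 Argonautes was 15.8, 14.8 and 14.1 in NC and 12.2, 10.3 and 9.36 in tRF-Val. The proportions within the family overlapped between the groups, with Ago2 at 56.0%, 58.8% and 61.6% of the sum in NC and at 54.1%, 56.8% and 57.9% in tRF-Val. Ago1 held 27.8% to 33.1% in NC and 31.4% to 32.3% in tRF-Val, and Ago3 10.6% to 10.9% and 10.7% to 13.7%.

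Of the TNRC6 genes, whose proteins link Argonaute to the deadenylases, Tnrc6b had groups that did not overlap. Its abundance was 2.96, 2.64 and 3.03 in NC and 2.06, 1.92 and 1.75 in tRF-Val. The groups were separated by more than the range within either, and the means were 2.88 ± 0.206 and 1.91 ± 0.154 (SD, n = 3 each), a log2 fold change of -0.41 (SE 0.151; limma adjusted p = 0.149).

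Tnrc6a was at 8.36, 8.80 and 10.1 in NC and at 9.20, 14.6 and 9.51 in tRF-Val. The groups overlapped and tRF-Val 2 stood above the rest. The log2 fold change was 0.24 (SE 0.216; limma adjusted p = 0.477), and it was 0.044 without tRF-Val 2 and 0.008 after rescaling without mitochondrial transcripts. Its full-length transcript Tnrc6a-201 was at 7.71, 8.36 and 8.49 in NC and at 9.20, 14.3 and 9.51 in tRF-Val, higher in each tRF-Val library than in any NC library (log2 fold change 0.36, SE 0.222, limma adjusted p = 0.399). The rest of the sum was Tnrc6a-207, a fragment of 463 bases that all lie in Tnrc6a-201, at 0.645, 0.438 and 1.55 in NC and at 0, 0.298 and 0 in tRF-Val. Tnrc6a-207 reached the lower limit of all mouse rows in NC only, with means of 0.878 in NC and 0.099 in tRF-Val. The part of this selection in the Tnrc6a sum was not tested.

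Tnrc6c was at 2.30, 3.29 and 2.92 in NC and at 3.18, 2.91 and 2.95 in tRF-Val. The tRF-Val values all lay inside the NC range, and the log2 fold change was 0.07 (SE 0.171; limma adjusted p = 0.793). In NC 2, 96.4% of the Tnrc6c sum was assigned to Tnrc6c-203, which was at 3.17 there, at 0.217 in NC 1 and at 0 in the other 4 libraries. Tnrc6c-202 was at 2.09, 0.119 and 2.92 in NC and at 3.18, 2.91 and 2.95 in tRF-Val. All bases of Tnrc6c-203 lie in Tnrc6c-202, so reads of these models overlap, and the gene sum is the value compared. Tnrc6c-203 also reached the lower limit of all mouse rows in NC only.

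Within the TNRC6 sum, the shares of Tnrc6a and Tnrc6b lay apart between the groups. Tnrc6b held 21.7%, 17.9% and 18.9% of it in NC and 14.3%, 9.84% and 12.3% in tRF-Val, without overlap. Tnrc6a held 59.8% to 62.8% in NC and 63.7% to 75.2% in tRF-Val, also without overlap. Tnrc6c, at 16.9% to 22.3% and 14.97% to 22.03%, overlapped. The sum itself was 13.6, 14.7 and 16.0 in NC and 14.4, 19.5 and 14.2 in tRF-Val. These shares are descriptions and were not tested.

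In order of mean abundance in NC, Drosha (45.5) stood above Xpo5 (24.2), with no overlap of their NC libraries. Dgcr8 (14.0), Dicer1 (11.5), Tnrc6a (9.07) and Ago2 (8.74) followed; the wide range of Dicer1 overlapped those of the other three, and Tnrc6a overlapped Ago2. Ago1 (4.57) lay below them, Tnrc6b (2.88) and Tnrc6c (2.84) overlapped, and Ago3 (1.59) was last. In tRF-Val, Drosha (39.1) was again first and Ago3 (1.27) last, while Xpo5 (12.2) and Tnrc6a (11.1) overlapped.

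Transcript length was a property that the members shared and that moved with the comparison. Their median length was 7548 bases, against 2795 for all genes tested, and 10 of 10 were longer than that median. With all genes in 10 bins of length, the median log2 fold change went from 0.61 in the shortest bin (median 846 bases) to -0.42 in the longest (median 7336 bases), which holds 7 of the members. In the next 2 bins, which hold the other 3 members, 40.9% and 33.6% of genes were lower in tRF-Val without overlap. Compared with the median of their own bin, 4 members were below it and 6 above. Xpo5 was lower than its bin median by a log2 difference of -0.62, Dicer1 by -0.57 and Dgcr8 by -0.37, while Tnrc6a was 0.66 and Tnrc6c 0.49 above theirs. Ago2 (-0.07), Tnrc6b (0.01), Drosha (0.04) and Ago1 (0.08) were close to their bin medians, and Ago3 was 0.22 above.

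With the trend of each library with length and GC content removed by a loess fit, Xpo5 was at -0.63 (SE 0.173; limma adjusted p = 0.123), Dicer1 at -0.50 (SE 0.312; limma adjusted p = 0.379) and Dgcr8 at -0.25 (SE 0.22; limma adjusted p = 0.525). Tnrc6a was at 0.73 (SE 0.218; limma adjusted p = 0.138). Ago2 was at -0.07 and Tnrc6b at -0.05, both under 1 SE. Drosha, Ago1 and Ago3 had positive values of 0.02, 0.07 and 0.30, and Tnrc6c was at 0.39 (SE 0.195; limma adjusted p = 0.28). The median of all genes was 0.03. The length trend is a property of these libraries; its part in each member's value, beyond these differences, was not tested.

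**Figure D3:**
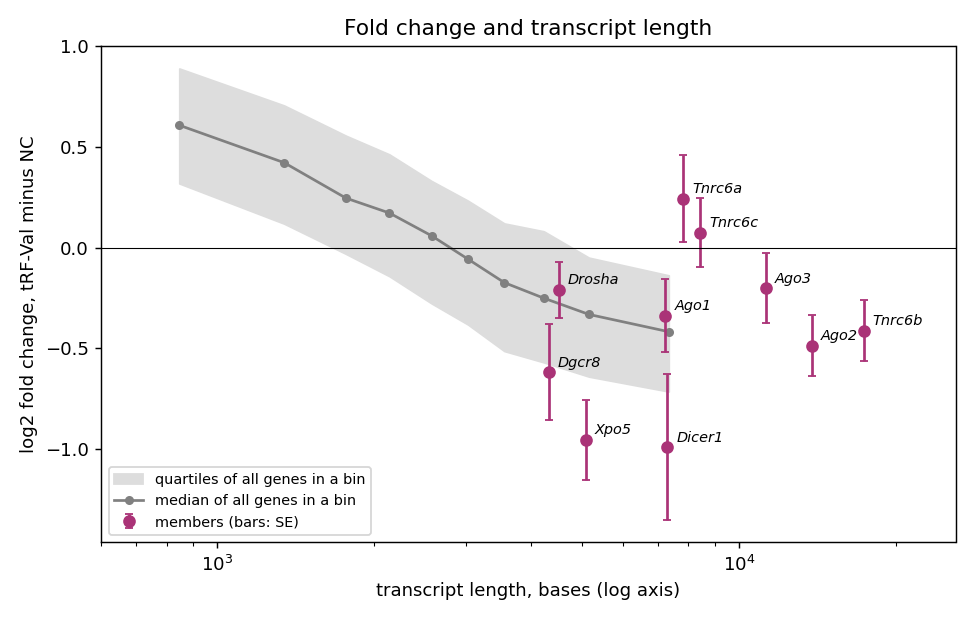
Log2 fold change (y axis, tRF-Val minus NC) against transcript length (x axis, bases, log scale); the grey line and band are the median and quartiles of all genes in 10 bins of length, and the points are the members with SE. Dgcr8, Xpo5 and Dicer1 lie below the lower quartile of their bins, and Tnrc6a and Tnrc6c above the upper quartile of the longest bin.

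**Figure D4:**
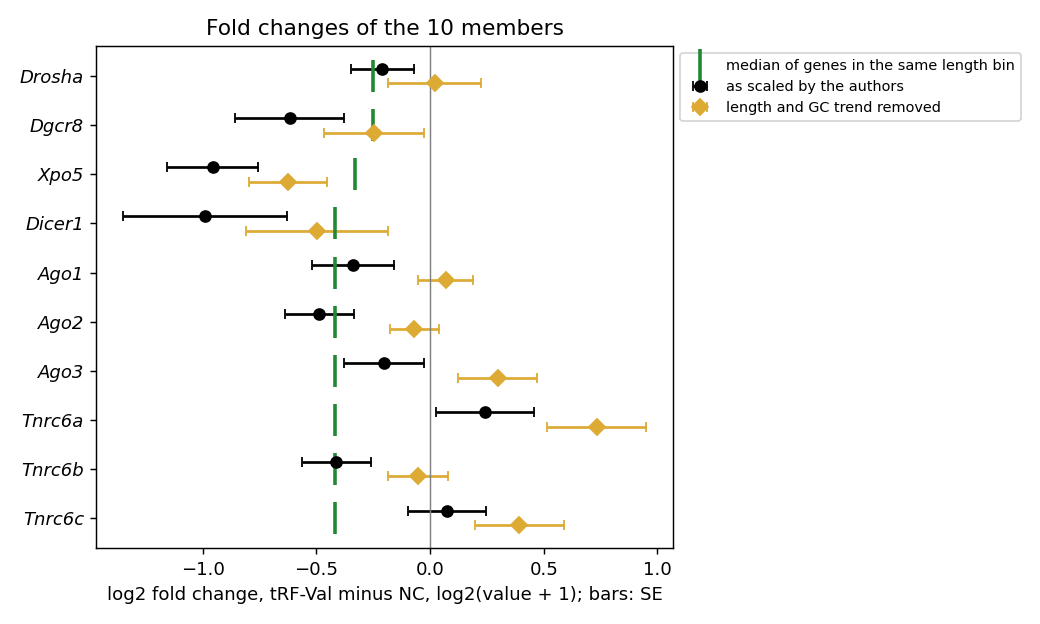
Log2 fold changes of the 10 members with SE (x axis), as scaled by the authors (black) and with the length and GC trend removed (yellow), with the median of genes of the same length bin as a green bar. Xpo5 moves from -0.96 to -0.63, and Drosha, Ago1 and Ago3 change sign.

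The genes that work beside the members were taken as 4 lists, described by counts and medians. For the genes named below, the median log2 fold changes of all genes in their length bins were as follows. They were -0.33 for Ddx17, 0.17 for Ilf2, 0.25 for Srrt, 0.06 for Ran, -0.25 for Tut7 and -0.33 for Eri1. For Elob the median was 0.61, for Cul3 and Pan3 -0.25, and for Arih1, Cnot1 and Cnot6l -0.42. The part of the length trend in the partner values was not tested. Among 14 Microprocessor partners, 0 were called, 1 was lower and 2 were higher at an unadjusted p under 0.05, and the median log2 fold change was -0.01. Ddx17, a helicase of the complex, was at 57.5 ± 6.53 in NC and 36.5 ± 1.47 in tRF-Val (SD, n = 3 each; log2 fold change -0.63, limma adjusted p = 0.0892). Ilf2, which encodes an RNA-binding complex subunit, was at 77.6 ± 8.05 and 105.2 ± 5.04 (SD, n = 3 each; log2 fold change 0.44, limma adjusted p = 0.121). Srrt, which encodes the cap-complex protein ARS2, was at 82.7 ± 23.0 and 125.8 ± 12.4 (SD, n = 3 each; log2 fold change 0.64, limma adjusted p = 0.158).

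Of 17 genes of export, dicing and tailing, 15 were tested and 0 were called, with 2 lower and 2 higher at an unadjusted p under 0.05 and a median of -0.08. Ran, the GTPase that exportin-5 needs, was at 548.4 ± 46.8 in NC and 760.3 ± 65.7 in tRF-Val (SD, n = 3 each), a log2 fold change of 0.47 (limma adjusted p = 0.119). Its direction was opposite to that of Xpo5. Tut7, which adds uridines to precursors, was at 17.96 ± 4.03 and 7.59 ± 2.34 (SD, n = 3 each; log2 fold change -1.15, limma adjusted p = 0.0893). Eri1, an exonuclease of small RNAs, was at 20.5 ± 4.83 and 14.2 ± 0.366 (SD, n = 3 each; log2 fold change -0.48, limma adjusted p = 0.17).

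Among 11 genes of Argonaute loading and turnover, 10 were tested and 0 were called, with 1 lower and 1 higher at an unadjusted p under 0.05 and a median of 0.00. Elob, a subunit of cullin ligases, was at 263.7 ± 62.0 in NC and 446.1 ± 76.0 in tRF-Val (SD, n = 3 each; log2 fold change 0.77, limma adjusted p = 0.114). Arih1, a ubiquitin ligase, was at 19.9 ± 1.28 and 14.0 ± 1.24 (SD, n = 3 each; log2 fold change -0.48, limma adjusted p = 0.114). Cul3, a cullin that works with ZSWIM8 in Argonaute turnover, was at 42.2 ± 14.1 and 27.4 ± 6.60 (SD, n = 3 each; log2 fold change -0.59, limma adjusted p = 0.234).

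The list with the lowest median was that of the deadenylation complexes recruited by TNRC6. Of 14 genes, 11 had a negative fold change and 0 were called, with 4 lower and 0 higher at an unadjusted p under 0.05 and a median of -0.30. Of all genes tested, 48.9% had a negative fold change, and the 15.6% lower and 12.2% higher at this p apply to each of the 4 lists. Cnot1, the scaffold of the CCR4-NOT complex, was at 21.2, 21.7 and 37.0 in NC and at 4.50, 5.71 and 2.01 in tRF-Val. Each NC library was far above each tRF-Val library, and NC 3 was the highest. The means were 26.6 ± 8.99 and 4.07 ± 1.89 (SD, n = 3 each), a log2 fold change of -2.48 (SE 0.369; unadjusted p = 0.000444; limma adjusted p = 0.0568), just short of the threshold. Pan3, a subunit of the PAN2-PAN3 deadenylase, was at 9.39 ± 1.38 and 4.31 ± 1.08 (SD, n = 3 each; log2 fold change -0.98, limma adjusted p = 0.0887). Cnot6l, a catalytic subunit of CCR4-NOT, was at 8.10 ± 1.97 and 4.71 ± 0.562 (SD, n = 3 each; log2 fold change -0.66, limma adjusted p = 0.121).

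**Figure D5:**
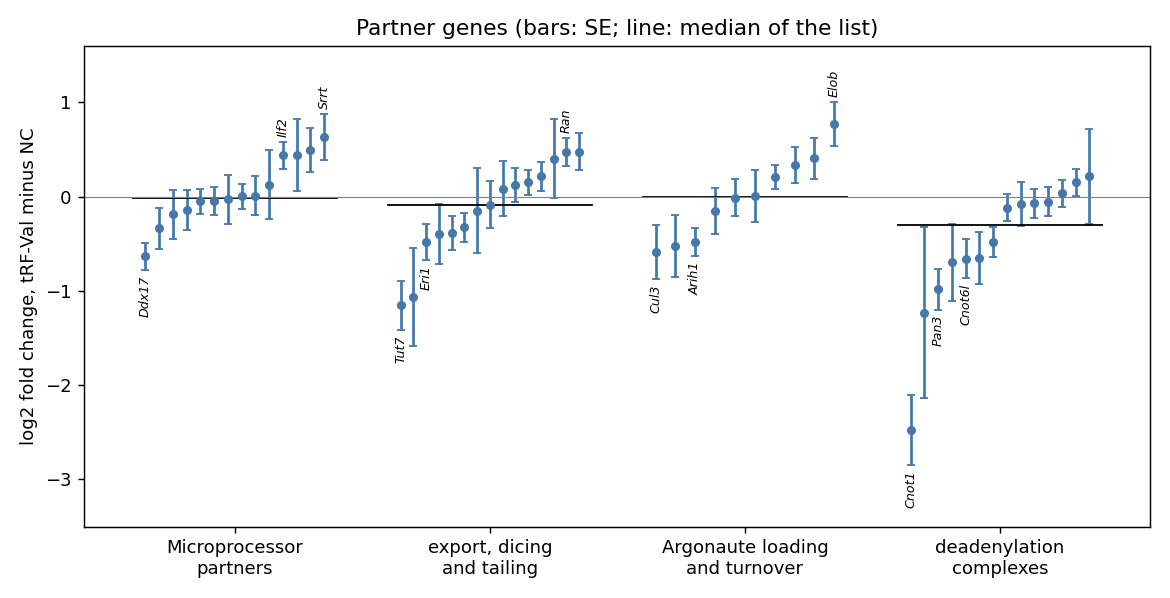
Log2 fold changes with SE (y axis, tRF-Val minus NC) of the tested partner genes, sorted within each of 4 lists (x axis), with the median of each list as a line; the named genes are the 3 with the smallest p in each. Cnot1 is the lowest at -2.48, and the deadenylation list has the lowest median, -0.30.

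Over the 6 libraries, the mean of the members' centred log2(value + 1) was 0.15, 0.14 and 0.30 in NC and -0.05, -0.16 and -0.38 in tRF-Val. The 5 other genes with the most similar profile, by Pearson's r over the 6 libraries, were Cdk8 (r = 0.998), Smurf2 (0.997), Polr2a (0.996), Atp2c1 (0.993) and Arhgap11a (0.993). Of 10395 other genes, 695 or 6.69% had an r above 0.9. The 6 points are the same libraries for every gene and fall into the 2 groups, so such values describe the profile only.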

How the data were processed

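The titles gave groups and replicate numbers. Stranded dUTP libraries were made from Trizol-extracted RNA, per the labels' protocols, whose text describes joint tissue although the samples are labelled as a kidney cell line. The tools were HISAT2 2.1.0, StringTie and cutadapt, with GRCh38 as the named build, per the submitters' processing notes; their settings and the annotation were not stated in what was used here. The deposited signal values are transcript abundances scaled by the authors, not read counts, so depth is unknown and no counting interval can be given.

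Of 30813 rows, 9210 with human identifiers were not used. Of 21603 mouse rows, 21558 matched GENCODE M21 with the version removed and 45 did not. All mouse rows reach a mean of 0.5 in 1 group or the other, so low transcripts are missing from the sums. Values were added per gene symbol, and 10405 genes with a mean of at least 1 were fitted as log2(value + 1) with limma 3.58.1 in R 4.3.3 (trend and robust moderation, both groups in 1 fit, two-sided, Benjamini-Hochberg, threshold 0.05); 16320 transcripts were fitted the same way. No exact permutation test was used, since with 3 libraries a group its smallest p is 0.1. P-values set the difference between the groups against the spread between libraries, which may be technical.

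The members and lists were chosen with earlier results of these data known. The genes named are the members, up to 3 genes with the smallest p of each partner list, and the 5 genes with the most similar profile. One Microprocessor partner was left out of its list and is not reported here. Alternatives were a minimum mean of 5 or no filter, pseudocounts of 0.1 and 0.01, a common median, quantile normalization, rescaling without mitochondrial transcripts, removal of the loess trend (span 0.3) with length, or with length and GC content, in each library, limma without trend or robust moderation, the replicate number as a block and each library left out. NC 3 left out together with the length and GC correction was chosen after seeing the data. Same-numbered libraries did not deviate together (correlations of -0.03, 0.02 and -0.01), so the numbers were not treated as pairs.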

Additional observations from a re-analysis of the deposited data

How the results depend on the processing

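In limma, 0 members passed in any of 20 fits over genes (10 members tested, but 6 with a minimum mean of 5). At an unadjusted p under 0.05 there were 1 to 7 members. The 7 were in the fit rescaled without mitochondrial transcripts, where 2724 of 10405 genes were lower and 569 higher at this p. Only 1 member was found with the replicate block, beside 1375 genes lower and 1080 higher. Without tRF-Val 3 it was also 1 member, beside 1026 genes lower and 602 higher. Of 186 member values, 175 kept their direction and their side of the threshold and 11 changed sign. With the length trend removed Drosha was at 0.12, Ago1 at 0.12 and Ago3 at 0.25. With length and GC content removed they were at 0.021, 0.068 and 0.30, and with NC 3 also left out at 0.23, 0.04 and 0.17. Rescaling without mitochondrial transcripts, which moved the median of all genes to -0.20 and that of the members to -0.57, put Tnrc6c at -0.12. Leaving out 1 library gave Tnrc6c values of -0.031 (without NC 1) to 0.158 and Dicer1-201 values of -0.461 to 0.051 (without tRF-Val 3). The adjusted p of Xpo5 ranged from 0.0518, without mitochondrial transcripts, to 0.289.

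Over all genes, the 6 higher genes became 2 with a pseudocount of 0.1, 0 with 0.01, 1 with a minimum mean of 5, 15 with a common median, 22 with quantile normalization, 23 without mitochondrial transcripts, 19 with length and GC content removed and 71 with NC 3 also left out. The 21 lower genes became 3, 0, 1, 23, 49, 186, 30 and 57 in the same order, 36 without trend and 32 without robust moderation. At a pseudocount of 0.01, 1195 genes were higher and 1603 lower at an unadjusted p under 0.05. Without NC 3, 286 genes were higher and 316 lower; without any other library, 0 to 5 were higher and 3 to 39 lower, and 602 to 1351 higher and 999 to 1732 lower at an unadjusted p under 0.05. Leaving out each library gave 8 (tRF-Val 3) to 165 (NC 3) higher and 12 (tRF-Val 3) to 294 (NC 3) lower transcripts. With the replicate number as a block, limma called 0 genes and 0 transcripts in either direction, with 1080 genes higher and 1375 lower at an unadjusted p under 0.05. The same-numbered libraries share only a number. The cause of these shifts was not tested. Depth is unknown, so how far it limits the low members such as Ago3 cannot be said.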
